A study of Mus musculus with 6 samples.

Results

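The glycolytic enzymes, their glucose and lactate carriers and a group of hypoxia-induced genes were compared between aortas of Mymsl knockout mice (KO) and wild-type controls (WT); Mymsl is a long noncoding RNA gene. The members are 32 genes taken by symbol from the count table, which has 53735 rows. All 32 had a row, and 31 passed the filter on low counts; Car9 did not. Each genotype had 3 libraries, made with a stranded poly(A) kit from total RNA of smooth muscle cells that the submitters isolated from the aortic media. The labels give no strain, age or sex and do not describe the Mymsl allele. The series text speaks of 3 pairs of mice but does not tie libraries to pairs or to single animals, so p-values measure only the spread between these libraries, which may be technical. Mymsl is not among the row names and was not analysed here.

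Glycolysis turns glucose into pyruvate in the cytosol, first by spending ATP on hexose phosphates and then by regaining it from triose phosphates. Most steps are run by several isoforms from separate genes, of which some are typical of striated muscle (Eno3, Pgam2, Pfkm, the carrier Slc2a4), some of brain (Eno2, Aldoc) and some are found in nearly all cells. Many of these genes, together with Vegfa, Adm, Bnip3, Egln3, Ankrd37, Car9, Ndrg1 and Pdk1, are known targets of the hypoxia-inducible factors (HIF), which accumulate when prolyl hydroxylation slows at low oxygen.

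Levels are given in CPM (counts scaled to a common library size, with library factors from the trimmed mean of M values, TMM). Values of single libraries are listed in the order of replicates 1, 2 and 3 of each genotype. Total counts per library lay between 20048216 and 25521123. Mitochondrially encoded genes held between 5.66% and 9.02% of counts in WT and between 10% and 18.9% in KO, the highest share being that of KO replicate 1. The summed level of 10 smooth muscle markers was 52498, 56021 and 55221 CPM in WT and 43755, 57809 and 46911 CPM in KO. Of these 10, 1 had a log2 fold change (KO over WT) above 0 and 1 had all KO libraries below all WT libraries. Of all tested rows, 47.5% were below 0 and 11.3% had all KO libraries below all WT libraries. The sum of 10 adventitial fibroblast markers was 6819 to 8377 CPM in WT and 6260 to 7669 CPM in KO. Its highest genes were Col1a1, Col3a1 and Gsn. Of these 10 markers, 7 had a log2 fold change above 0 and 2 had all KO libraries below all WT libraries. The other lists summed to less: 12 endothelial markers to 500 to 632 CPM in WT and 543 to 866 CPM in KO, 11 fat markers to 254 to 536 and 346 to 511 CPM, 8 nerve markers to 263 to 289 and 259 to 268 CPM, 18 heart muscle markers to 109 to 141 and 134 to 211 CPM, and 12 macrophage markers to 58.9 to 97.3 and 54.9 to 142 CPM. Brown adipocyte markers (7 genes) summed to 33.0 to 72.4 CPM in WT and 42.3 to 110 CPM in KO. Erythroid markers (7 genes) summed to 20.3 to 152 CPM in WT and 25.65 to 35.7 CPM in KO. Log2 fold changes were above 0 for 4 of 5 tested brown adipocyte markers and 0 of 5 tested erythroid markers. In bulk RNA, fewer cells of a type and less RNA per cell cannot be told apart.

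No member passed the test between KO and WT over all genes. In the quasi-likelihood test of edgeR the adjusted p-values of the 31 tested members lay between 0.261 (Eno3) and 0.993 (Tpi1). Over all 14145 tested rows 1 was called, a share of 0.00707%. At an unadjusted p under 0.05, 3 members were higher in KO (Eno3, Adm and Eno2) and 0 were lower, where 6.8% of all tested rows were higher and 7.76% lower. Log2 fold changes (KO over WT) were above 0 for 16 members and below 0 for 15 (48.4%, where 47.5% of all tested rows were below 0), with a median of 0.017, and the median over all tested rows was 0.012. The summed level of the 32 members was 3217, 3504 and 3243 CPM in WT and 3189, 3528 and 3326 CPM in KO. The groups overlapped, and the highest library in each was replicate 2. Of the 25 members outside the hypoxia group, 14 were highest in WT replicate 2 and 17 in KO replicate 2. The same shares over all tested rows were not computed, so these counts cannot be called particular to the members. The smooth muscle markers were also highest there, at 56021 CPM in WT replicate 2 and 57809 CPM in KO replicate 2; their part in the members' levels was not tested.

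**Figure D1:**
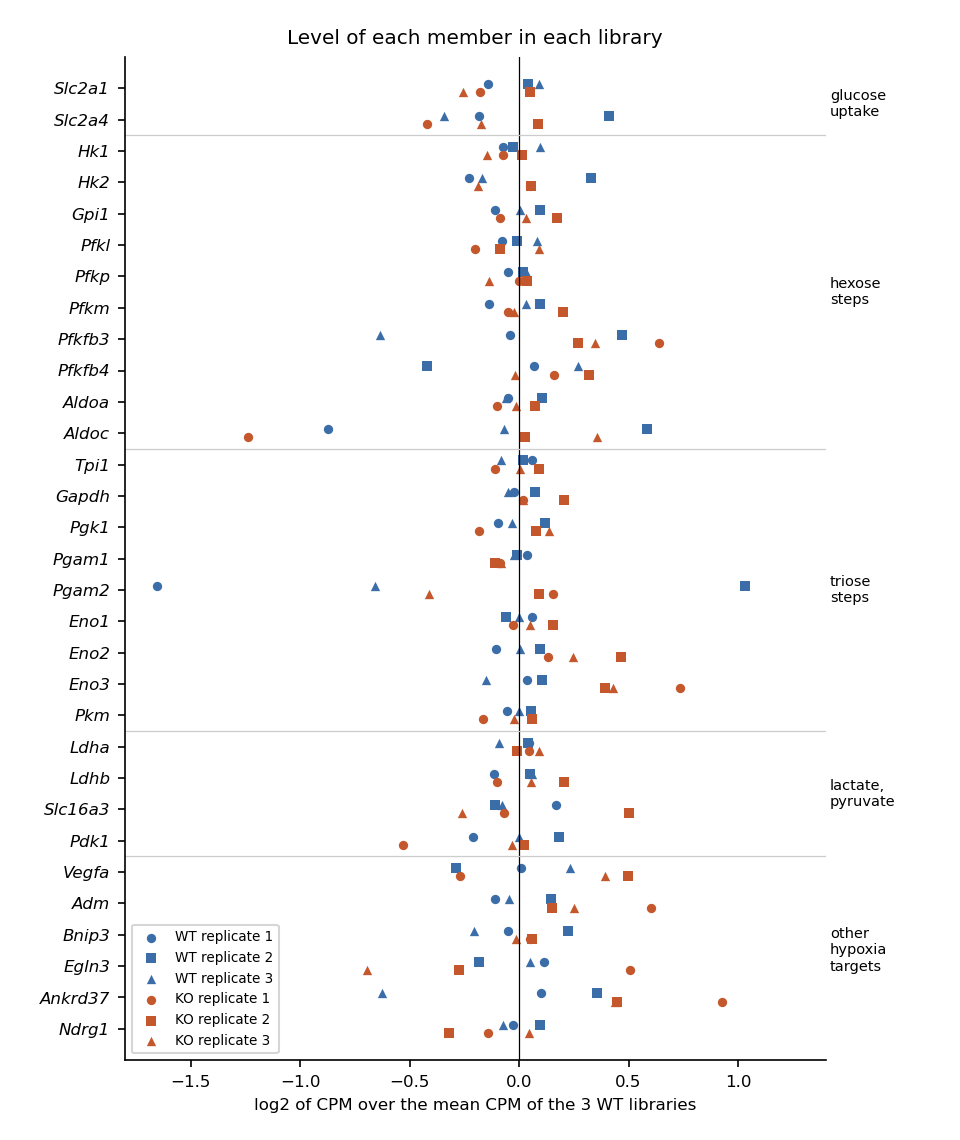
Level of each tested member in each of the 6 libraries, as log2 of CPM over the mean CPM of the 3 WT libraries (WT blue, KO orange, 1 marker shape per replicate number). Most enzymes lie close to 0 in every library, Eno3, Eno2, Adm and Ankrd37 have all KO libraries to the right of all WT libraries, and the low genes Pgam2 and Aldoc spread widely.

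KO and WT libraries did not overlap for 5 of the 31 tested members. Eno3, Eno2, Adm and Ankrd37 had all KO libraries above all WT libraries, 12.9% of the tested members, where 10.5% of all tested rows did the same. Pgam1 was lower, 3.23% of the tested members, where the share of all tested rows was 11.3%. The member counts in both directions are thus near or below the background, and none of the 5 genes passed in edgeR.

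**Figure D2:**
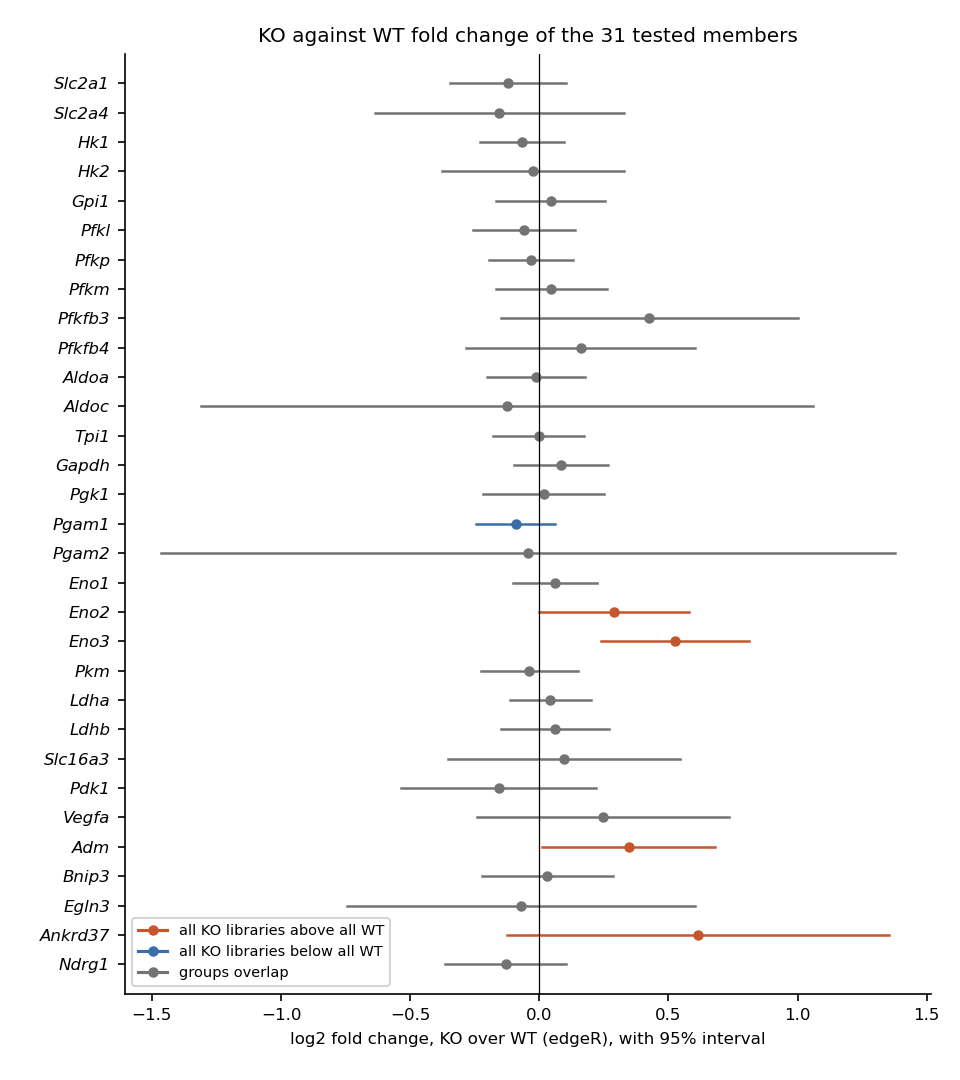
Log2 fold change of KO over WT for the 31 tested members from edgeR, with the 95% interval of each, not adjusted for the number of genes. Orange and blue mark the 5 members whose KO and WT libraries do not overlap; the intervals of Aldoc and Pgam2 are the widest.

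Eno3, which encodes β-enolase, the isoform of striated muscle, had the smallest p of all members. The gene lies at chr11:70657202-70662513 on the plus strand (GRCm38). Eno3 measured 12.5, 13.2 and 11.01 CPM in WT and 20.4, 16.1 and 16.5 CPM in KO. The lowest KO library stood above the highest WT library, and KO replicate 1 stood above the other two. The log2 fold change was 0.53 ± 0.12 (SE), a factor of 1.44 with a 95% interval of 1.18 to 1.76. Eno3 did not pass in edgeR (adjusted p = 0.261) or limma-voom (adjusted p = 0.27). It passed in DESeq2 (adjusted p = 0.0408), the only 1 of the 24 members with an adjusted p there to do so, where 2.35% of the rows with an adjusted p were called. Without KO replicate 1 the log2 fold change was 0.41, and without both KO replicate 1 and WT replicate 3, the libraries of highest and lowest mitochondrial share, it was 0.34.

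Heart muscle markers had their highest summed level in the library with the highest Eno3, and 0 of them passed in edgeR; their part in the level of Eno3 was not tested. Of 18 markers 12 were tested, 11 had a log2 fold change above 0, and 4 (Myl4, Myh7, Tnnc1 and Ankrd1) had separated groups with KO higher. Of all tested rows, 47.5% had a log2 fold change below 0 and 10.5% had separated groups with KO higher, so both counts of heart markers lie above the background. The summed level was 141, 109 and 134 CPM in WT and 211, 137 and 134 CPM in KO, so the sums overlapped. Ryr2 was the highest single marker, with 54.4 to 93.1 CPM in WT and 69.5 to 81.4 CPM in KO. In KO replicate 1 most of the sum came from other markers, among them Pln (24.1 CPM), Tnnt2 (18.6 CPM), Myl4 (18.1 CPM) and Actc1 (13.8 CPM). The cardiac myosin Myh6 measured 13.4 CPM in KO replicate 1, 3.06 CPM in KO replicate 2, 0.433 CPM in KO replicate 3 and 0.374 to 1.63 CPM in WT. Among the untested markers, Nppa, Myl2 and Myl3 were at or below 0.155 CPM in all 6 libraries. Sln, Mybpc3 and Csrp3, also untested, measured 3.56, 2.32 and 1.65 CPM in KO replicate 1 and at or below 0.25 CPM in every other library. KO replicate 3 had 16.5 CPM of Eno3, above every WT library. Of the tested heart markers, Myh6, Myl7, Tnnt2, Tnni3, Ryr2 and Ttn lay within the WT range there and Actc1 below it. Pln (29.8 CPM), Ankrd1 (12.6 CPM), Myl4 (7.96 CPM), Tnnc1 (1.21 CPM) and Myh7 (0.735 CPM) stood above every WT library there. Skeletal muscle markers summed to 177 to 216 CPM in WT and 169 to 242 CPM in KO, mostly from Casq1, and the fast myosins Myh1, Myh2 and Myh4 were at or below 0.249 CPM. Of 9 tested skeletal markers 1, Actn3, had separated groups with KO higher.

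The other enolases differ enough in sequence for their reads to be told apart. Each of these coding sequences is 1302 bases long. The coding sequence of Eno3 matched that of Eno1 at 76.7% of aligned bases and that of Eno2 at 77.8%, gaps left out. The longest identical runs were 20 and 23 bases. Coding bases 130 to 249, counted from 1 at the A of the start codon, are shown because they hold more differences between Eno3 and Eno1 than any other window of 120 bases (windows moved by 3 bases), 38 in all. Sequences are from the GENCODE M21 transcripts, 5′ to 3′. Capitals mark, in Eno3, the bases that differ from Eno1, and in Eno1 and Eno2 the bases that differ from Eno3.
Eno3: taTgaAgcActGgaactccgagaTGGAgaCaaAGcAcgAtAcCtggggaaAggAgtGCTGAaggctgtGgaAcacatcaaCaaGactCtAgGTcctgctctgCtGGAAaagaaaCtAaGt
Eno1: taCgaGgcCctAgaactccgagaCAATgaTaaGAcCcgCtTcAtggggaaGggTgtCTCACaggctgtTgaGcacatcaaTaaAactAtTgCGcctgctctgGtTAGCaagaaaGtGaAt
Eno2: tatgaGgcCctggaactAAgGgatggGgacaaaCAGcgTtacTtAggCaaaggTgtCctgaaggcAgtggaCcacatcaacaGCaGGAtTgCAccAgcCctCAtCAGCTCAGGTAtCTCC

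Eno1, the isoform found in most cells, measured 129, 118 and 123 CPM in WT and 121, 138 and 128 CPM in KO. The groups overlapped, and the log2 fold change was 0.061 ± 0.069, with a 95% interval of the fold from 0.933 to 1.17. Eno2, the isoform of neurons, measured 8.26, 9.50 and 8.90 CPM in WT and 9.75, 12.3 and 10.6 CPM in KO. All KO libraries stood above all WT libraries, with the highest value in KO replicate 2 rather than KO replicate 1 (log2 0.29 ± 0.12, adjusted p = 0.342). Per kb of principal transcript Eno1 was the main enolase in WT with 60.9 ± 2.51 CPM per kb (SD, n = 3), followed by Eno3 with 8.37 ± 0.753 and Eno2 with 3.18 ± 0.221. In KO these levels were 63.6 ± 4.07, 12.1 ± 1.63 and 3.89 ± 0.462 CPM per kb. Per kb of all annotated exons the order in WT was the same with a smaller gap, at 23.0, 7.03 and 1.89 CPM per kb.

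The count ratio of Eno3 to Eno1 within a library does not depend on scaling. Its log2 was −3.36, −3.17 and −3.48 in WT and −2.57, −3.10 and −2.95 in KO. All KO ratios stood above all WT ratios, and the means differed by 0.46 on the log2 scale (exact two-sided permutation p = 0.1, the smallest that 3 against 3 libraries allow; 0.9 adjusted over the 9 ratios computed). With each library left out in turn the difference lay between 0.31 and 0.57. The ratio of Eno3 to Eno2 differed by 0.24 and overlapped between the groups (exact permutation p = 0.4), so Eno3 was not shown to move apart from Eno2.

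**Figure D3:**
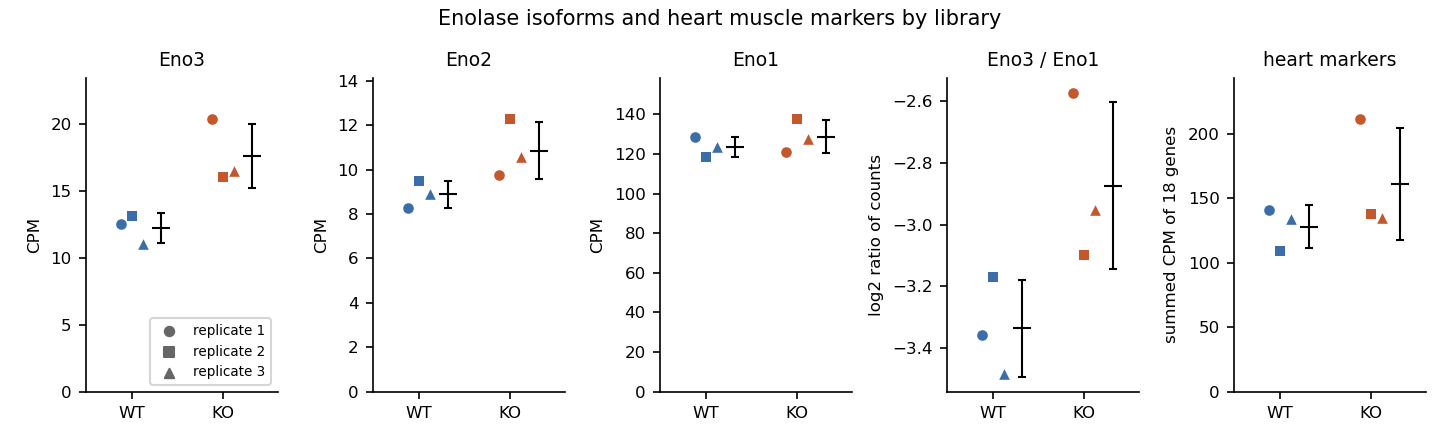
CPM of Eno3, Eno2 and Eno1, log2 ratio of Eno3 to Eno1 counts, and summed CPM of the 18 heart muscle markers in each library, with the mean and SD of each group as black bars. Eno3, Eno2 and the ratio have all KO libraries above all WT libraries, Eno1 and the heart markers do not, and KO replicate 1 is highest for Eno3, the ratio and the heart markers.

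None of the other muscle isoforms Pfkm, Pgam2 and Slc2a4 had separated libraries. Pfkm, the muscle subunit of phosphofructokinase, measured 97.9, 115 and 110 CPM in WT and 104, 124 and 106 CPM in KO (log2 0.047 ± 0.092, 95% interval of the fold 0.891 to 1.198). Its log2 ratio to the liver-type subunit Pfkl differed by 0.11 between KO and WT and to the platelet-type subunit Pfkp by 0.08, and both overlapped (exact permutation p = 0.6 and 0.4). Pgam2, the muscle phosphoglycerate mutase, had 11, 74 and 22 counts in WT and 31, 32 and 25 counts in KO. WT replicate 2 held most of the WT counts, so the log2 fold change of −0.044 ± 0.61 has a wide interval of the fold (0.363 to 2.59), and it was 1.03 without that library. Slc2a4, the insulin-regulated glucose carrier GLUT4, measured 36.4, 54.9 and 32.5 CPM in WT and 30.8, 43.8 and 36.6 CPM in KO (log2 −0.15 ± 0.21). It too was highest in WT replicate 2, and without that library its log2 fold change was 0.11. Hk2, the hexokinase of insulin-sensitive tissues, had 41.3, 60.8 and 43.0 CPM in WT and 50.03, 50.3 and 42.5 CPM in KO (log2 −0.024 ± 0.15), and 0.17 without WT replicate 2. Log2 ratios of Slc2a4 to Slc2a1, Hk2 to Hk1, Ldhb to Ldha and Aldoc to Aldoa differed by −0.008, 0.062, 0.012 and −0.13, all with overlapping groups (exact permutation p between 0.7 and 1).

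Per kb of transcript, the isoforms of a step stood far apart in some cases. Aldoa, the aldolase of muscle and most other cells, measured 352 ± 22.6 CPM per kb in WT and Aldoc, the brain form, 0.218 ± 0.105 (183 and 0.187 per kb of all annotated exons). Pgam1 measured 12.9 ± 0.275 and Pgam2 1.71 ± 1.57 CPM per kb. Pfkfb3, which makes the phosphofructokinase activator fructose 2,6-bisphosphate, measured 13.5 ± 5.01 CPM per kb and its relative Pfkfb4 2.24 ± 0.518. Hk1 measured 22.0 ± 1.36 and Hk2 8.77 ± 1.96 CPM per kb of principal transcript, but 9.93 and 8.10 per kb of all annotated exons, while Slc2a1 and Slc2a4 did not differ beyond their spread (16.8 ± 1.396 and 16.4 ± 4.74). For phosphofructokinase the order was Pfkp, Pfkm, Pfkl at 57.9, 37.4 and 14.2 CPM per kb of the principal transcript. Per kb of all annotated exons Pfkm came first, with 32.2 against 17.9 for Pfkp. The order of the lactate dehydrogenase subunits likewise depended on the length used: Ldha had 102 and Ldhb 72.0 CPM per kb of principal transcript, and 54.4 and 59.8 per kb of all exons.

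**Figure D4:**
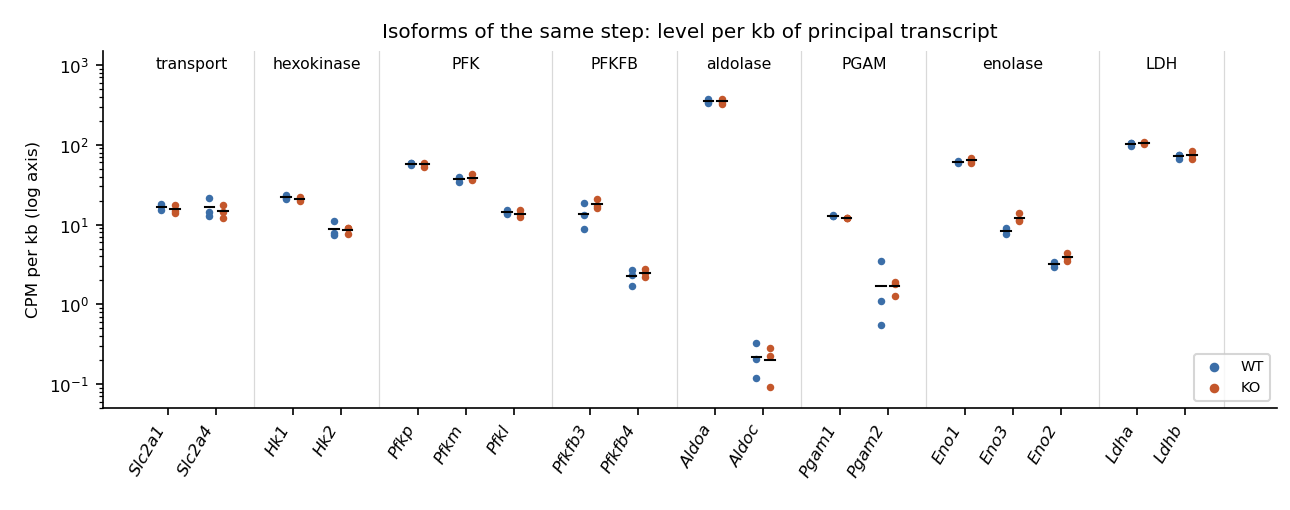
CPM per kb of principal transcript for isoforms of the same step, on a log axis, with 1 point per library (WT blue, KO orange) and a black line at each group mean. Aldoa exceeds Aldoc by the widest margin, and the KO points of Eno3 and Eno2 stand above their WT points.

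Glucose uptake and the hexose steps showed no call and no separated member. The basal glucose carrier Slc2a1 measured 49.7, 56.5 and 58.3 CPM in WT and 48.5, 56.8 and 46.0 CPM in KO (log2 −0.12 ± 0.097). Hk1, Gpi1 (glucose-6-phosphate isomerase), Pfkl, Pfkp, Pfkm and Aldoa had log2 fold changes between −0.068 and 0.047 with standard errors between 0.07 and 0.092. Aldoa, the most abundant member, measured 514, 572 and 511 CPM in WT and 497, 560 and 527 CPM in KO, a fold of 0.991 with a 95% interval of 0.870 to 1.13. Pfkfb3 had the largest difference of this group, with 60.6, 86.5 and 40.2 CPM in WT and 97.2, 75.2 and 79.6 CPM in KO. WT replicate 2 stood among the KO libraries, and the log2 fold change of 0.43 ± 0.25 was 0.73 without WT replicate 2, 0.20 without WT replicate 3 and 0.073 when KO replicate 1 was dropped as well as WT replicate 3 (adjusted p = 0.44 with all 6 libraries). Pfkfb4 measured 8.18, 5.84 and 9.40 CPM in WT and 8.72, 9.75 and 7.70 CPM in KO. Aldoc had 5 to 23 counts per library.

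Among the triose steps, Pgam1 measured 23.5, 22.8 and 22.6 CPM in WT and 21.7, 21.3 and 21.7 CPM in KO. The groups did not overlap, but the difference was small (log2 −0.092 ± 0.066, adjusted p = 0.523). Gapdh, which oxidises glyceraldehyde 3-phosphate, measured 271, 290 and 266 CPM in WT and 279, 318 and 279 CPM in KO (log2 0.085 ± 0.078). Tpi1, Pgk1 and Pkm (triose-phosphate isomerase, phosphoglycerate kinase and muscle-type pyruvate kinase) had log2 fold changes of −0.002 ± 0.076, 0.017 ± 0.10 and −0.039 ± 0.081. For Pkm, the values were 502, 542 and 521 CPM in WT and 466, 544 and 515 CPM in KO, with overlapping groups.

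At the end of the pathway, Ldha and Ldhb, the subunits of lactate dehydrogenase, measured 180 ± 9.47 and 93.9 ± 6.11 CPM in WT and 186 ± 6.52 and 97.8 ± 10.2 CPM in KO (SD, n = 3). Slc16a3, the lactate exporter MCT4, measured 20.8, 17.2 and 17.6 CPM in WT and 17.6, 26.2 and 15.4 CPM in KO; KO replicate 2 alone stood apart. Pdk1, a kinase that switches off pyruvate dehydrogenase, measured 18.3, 24.1 and 21.2 CPM in WT and 14.7, 21.6 and 20.8 CPM in KO. Its log2 fold change was −0.16 ± 0.16, and it was −0.0035 without KO replicate 1. Over all members, the 95% interval of the fold lay inside a range of 1.5-fold in both directions for 21 of 31.

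The hypoxia targets outside glycolysis had no call among 6 tested members, with a median log2 fold change of 0.14. Adm, which encodes the vasodilator peptide adrenomedullin, measured 9.21, 11.005 and 9.65 CPM in WT and 15.1, 11.035 and 11.9 CPM in KO. KO replicate 2 lay just above WT replicate 2, and KO replicate 1 stood apart (log2 0.35 ± 0.14, adjusted p = 0.335; log2 0.20 without KO replicate 1). Ankrd37, an ankyrin-repeat protein gene, had 28, 35 and 17 counts in WT and 40, 31 and 34 counts in KO, or 1.16, 1.39 and 0.704 CPM against 2.06, 1.48 and 1.47 CPM. Its log2 fold change was 0.61 ± 0.32 (adjusted p = 0.397), and it was 0.39 when WT replicate 3 was left out, 0.44 when KO replicate 1 was, and 0.21 when both were. Exons of Ankrd37 overlap on the other strand with 57 bases of Ufsp2, which had 5186 counts over the 6 libraries against 185 of Ankrd37, and no source used here gives the strand setting of the counting.

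Vegfa, the endothelial growth factor, measured 20.7, 16.9 and 24.2 CPM in WT and 17.1, 29.0 and 27.1 CPM in KO; KO replicate 1 lay with the lowest WT library. The log2 fold change of Vegfa was 0.25 ± 0.21; it ranged from 0.11 (KO replicate 2 left out) to 0.45 (KO replicate 1 left out) and was 0.12 with WT replicate 2 and 0.38 with WT replicate 3 left out. Egln3, an oxygen-sensing prolyl hydroxylase that HIF itself induces, measured 6.43, 5.24 and 6.17 CPM in WT and 8.46, 4.92 and 3.68 CPM in KO. The KO libraries lay on both sides of the WT range. Bnip3, a mitophagy receptor, measured 34.6 ± 5.30 CPM in WT and 35.4 ± 0.934 CPM in KO, and Ndrg1, a stress-response gene, 174 ± 10.7 and 159 ± 20.2 CPM (SD, n = 3). Car9, a carbonic anhydrase strongly induced by HIF1 in many tissues, had 4, 5 and 0 counts in WT and 5, 11 and 2 counts in KO and was too low for the test. Adm and Ankrd37 were highest in KO replicate 1, and Vegfa was lowest there among KO libraries, so the hypoxia targets did not share an order over the KO libraries.

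The core of the HIF binding motif, searched as ACGTG and GCGTG on both strands, was looked up in the 250 bases before each gene start in the RefSeq promoter table (GRCm38.p6). The table held 30 of the 32 members, with 44 starts, and some of their windows overlap each other. Many windows also overlap annotated exons of their own gene, among them the Vegfa window that holds its matches. The shares below are therefore not of upstream sequence alone. Slc2a4 and Ndrg1 had no entry. At least 1 match stood in 34 of the 44 (77.3%), against 38.6% of 32851 starts of all genes; ACGTG alone stood in 40.9% and 16.6%. The members' windows were also richer in G and C, with a median of 59.2% against 52.4%, and this was not adjusted for. ACGTG also lies within the palindrome CACGTG, which counts on both strands. The windows of Eno3 and Adm are shown as members with separated libraries, and that of Pgk1, whose log2 fold change was near 0, for comparison; capitals mark the matches. They lie at chr11:70656926-70657175, chr7:110627407-110627656 and chrX:106186850-106187099, all on the plus strand, and are written 5′ to 3′.
Eno3: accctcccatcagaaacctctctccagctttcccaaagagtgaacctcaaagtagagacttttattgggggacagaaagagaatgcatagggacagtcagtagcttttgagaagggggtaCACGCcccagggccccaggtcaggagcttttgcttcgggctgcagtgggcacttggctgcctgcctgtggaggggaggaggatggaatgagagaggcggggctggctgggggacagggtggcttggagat
Adm: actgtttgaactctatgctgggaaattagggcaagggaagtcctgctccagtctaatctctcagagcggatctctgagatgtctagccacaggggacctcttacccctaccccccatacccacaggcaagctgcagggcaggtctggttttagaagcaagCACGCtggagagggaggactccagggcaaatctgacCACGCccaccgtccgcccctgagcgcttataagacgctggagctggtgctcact
Pgk1: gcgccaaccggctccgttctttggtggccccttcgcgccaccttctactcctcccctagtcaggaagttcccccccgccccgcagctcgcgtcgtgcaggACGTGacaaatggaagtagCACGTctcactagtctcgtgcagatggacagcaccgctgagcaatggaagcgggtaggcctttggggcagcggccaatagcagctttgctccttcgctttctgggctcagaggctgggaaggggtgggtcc
Eno3 had 1 match (GCGTG on the minus strand, first base at −130 from the start), Adm had 2 of the same kind (−90 and −54), and Pgk1 had 2 of ACGTG (−150 on the plus and −131 on the minus strand). Among the remaining members with separated libraries, Eno2 had 0 matches in its window, Ankrd37 had 2 of ACGTG and 2 of GCGTG, and Pgam1 had 1 of ACGTG and 2 of GCGTG. A match describes these letters only; binding was not measured.

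HIF subunits and their regulators had 12 tested genes, of which 0 passed in edgeR. Log2 fold changes were below 0 for 9 (75%, where 47.5% of all tested rows were below 0). Separated groups with KO lower made up 16.7% of them, against 11.3% of all tested rows, and with KO higher 0%, against 10.5%. Hif1a, the oxygen-regulated subunit HIF-1α, measured 167, 160 and 156 CPM in WT and 126, 146 and 125 CPM in KO. The groups did not overlap (log2 −0.28 ± 0.078, adjusted p = 0.266). Vhl, which marks hydroxylated HIF for degradation, also had all KO libraries below all WT libraries (27.4 ± 0.655 and 23.5 ± 0.385 CPM, log2 −0.22 ± 0.065, adjusted p = 0.273). Epas1, the HIF-2α gene, measured 260 ± 17.8 and 253 ± 76.1 CPM. The hydroxylases Egln1 (log2 −0.044 ± 0.062) and Egln2 (0.10 ± 0.068) and the factor-inhibiting gene Hif1an (−0.17 ± 0.083) overlapped between the groups, as did Cited2 (0.47 ± 0.23), a HIF target that competes for the coactivators.

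Further hypoxia targets had 19 tested of 20 listed, with 0 passing in edgeR, 11 above 0 and 8 below 0 (42.1%, where 47.5% of all tested rows were below 0). Separated groups with KO lower made up 15.8% of them, against 11.3% of all tested rows, and with KO higher 5.26%, against 10.5%. Lox, the collagen and elastin crosslinking enzyme, measured 225, 150 and 339 CPM in WT and 104, 127 and 135 CPM in KO. All KO libraries lay below all WT libraries, but WT libraries differed among themselves by more than 2-fold (log2 −0.96 ± 0.27, adjusted p = 0.264). Ero1l, an oxidase of the endoplasmic reticulum, had −0.22 ± 0.077, the mitochondrial protein gene Fam162a −0.12 ± 0.059 and the adenylate kinase Ak4 0.42 ± 0.17.

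The remaining lists of glucose metabolism had 0 members passing in edgeR. Separated groups with KO lower made up 30% of the tested pyruvate dehydrogenase list, 28.6% of the glycogen list and 30.8% of the insulin and AMPK list. They made up 22.2% of the carrier list and 0% of the other glycolytic enzymes, against 11.3% of all tested rows. With KO higher the shares were 10%, 7.14%, 0%, 0% and 14.3% in the same order, against 10.5%. Among the 10 genes of the pyruvate dehydrogenase complex and its regulators, the phosphatases Pdp1 (−0.24 ± 0.077) and Pdp2 (−0.26 ± 0.087), which reactivate the complex, and its subunit Pdhx (−0.13 ± 0.08) had all KO libraries below all WT libraries, and the subunit Pdhb all above (0.14 ± 0.055). Of 9 sugar and lactate carriers, Slc16a7 (MCT2) measured 85.3 ± 0.51 CPM in WT and 73.6 ± 4.18 CPM in KO (−0.21 ± 0.059), and Slc2a3 −0.42 ± 0.18 on the log2 scale. Among 14 glycogen genes, the glycogen-targeting phosphatase subunit Ppp1r3c (−0.47 ± 0.13), the phosphorylase Pygb (−0.34 ± 0.11) and Ugp2 (−0.12 ± 0.062) had separated groups with KO lower, and the phosphorylase kinase subunit Phkg1 (0.33 ± 0.13) with KO higher. Pygm, the muscle phosphorylase, overlapped between the groups (121 ± 16.2 and 111 ± 18.6 CPM). Among 16 other glycolytic enzymes 7 were tested. Ldhd, the D-lactate dehydrogenase, measured 10.4 ± 0.765 and 14.4 ± 2.87 CPM (0.46 ± 0.15, adjusted p = 0.279). Pgk2 and Ldhc, which are typical of testis, had 0 counts in all 6 libraries. The insulin and AMPK list of 13 genes also held Myc and Hif1a. Hif1a, already counted in the HIF list, is among its separated genes. Mef2a (−0.26 ± 0.079) and Mef2c (−0.22 ± 0.079), transcription factors that drive Slc2a4 in muscle, had separated groups with KO lower. So did Prkaa1, a catalytic subunit of AMPK (−0.14 ± 0.073). Tbc1d4 (0.36 ± 0.19), with a smaller p than Prkaa1, overlapped between the groups. Of the 13 genes of this list, 4 had a log2 fold change above 0 and 9 below 0.

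Levels of some enzymes are uncertain because near-identical gene copies can share their reads. Of the 32 members 10 had at least 1 copy elsewhere in the annotation (at least 95% identity over at least 100 bases), and Gapdh had 76. Rows of copies that could be matched by name held few counts: 22 over 4 rows for Gapdh against 38773 of Gapdh itself, and 2 for Eno1b against 17244 of Eno1. How such multiply mapped reads were counted is not stated in the labels, and their part in the levels of these genes was not tested. Eno3, Eno2, Adm and Ankrd37 had 0 such copies. Exons of Pfkp overlap those of Pitrm1 on the other strand over 748 bases, and Pitrm1 had 8928 counts against 32473 of Pfkp.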

How the data were processed

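The authors deposited 1 table of raw gene counts (whole numbers, not normalized) for 6 libraries. The submitters' processing notes list GRCm38 as build and name Trimmomatic 0.36, STAR 2.6.0c, and Subread 1.6.1 with featureCounts. Annotation release, strand setting and treatment of multiply mapped reads: not given in the sources used here. The members and lists were chosen with earlier results of these data known.

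Genotypes were compared with edgeR 4.0.16, quasi-likelihood test (R 4.3.3) with genotype as the only term, TMM scaling and filterByExpr (minimum count 10, minimum total 15), on 14145 rows. Benjamini-Hochberg adjustment ran over all tested rows, with a threshold of 0.05. Standard errors are the log2 fold change divided by the root of F, and 95% intervals from the same test's degrees of freedom. DESeq2 1.42.0 and limma-voom (limma 3.58.1) were alternatives, with others given in the closing section. Isoform ratios are log2 of counts + 0.5, compared with an exact permutation test. Named genes are all 32 members and, for each other list, genes of smallest p; Epas1, Egln1, Egln2, Pygm, Pgk2, Ldhc, Ugp2 and Prkaa1 were added after their values were seen. 1 gene of the glycogen list is not reported here. Gene positions, transcript lengths and copies (BLAST 2.17.0) come from GENCODE M21 on GRCm38. The principal transcript is a protein-coding one with a CCDS tag, the best APPRIS tag and support level. On simulated counts for 14145 genes, edgeR recovered 48% of 50 genes changed 1.5-fold and 64% of 50 changed 2-fold. The simulation drew each gene independently, without differences shared by the genes of a library, and changed 200 genes. These shares therefore do not give the share of real changes that the test would call in these libraries. Libraries with the same replicate number were not treated as pairs.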

Additional observations from a re-analysis of the deposited data

How the results depend on the processing

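Over all genes edgeR called 1 row with all 6 libraries, 9 without the filter on low counts, and between 0 and 3 with each library left out in turn (0 without WT replicate 1, 3 without KO replicate 2). It called 0 without WT replicate 3 and KO replicate 1 together, a setting chosen after seeing the data. DESeq2 called 199. Members called were 0 in each setting except DESeq2, where Eno3 passed with a log2 fold change of 0.52 (adjusted p = 0.0408; over the other settings the call was not made). Eno3, Eno2, Adm, Ankrd37 and Pfkfb3 kept a log2 fold change above 0, and Pgam1 below 0, in every setting run for them. In the setting that drops those 2 libraries (WT replicate 3, KO replicate 1), Pfkfb3 was at 0.073 and Vegfa at 0.58. Libraries with the same replicate number had correlations of 0.128, 0.110 and −0.045 between their deviations from the group means. Between libraries with different numbers the correlations ran from −0.282 to 0.15. So few values cannot decide whether the numbers mark pairs, and the libraries were not taken as pairs. With the replicate block, 0 rows were called over all genes and 0 members, and the median over the members was 0.041.

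Members near 0 changed sign with the library left out (1 library, or WT replicate 3 and KO replicate 1 together). The members' median ran from −0.034 to 0.081. Log2 fold changes ran from −0.29 to 0.11 for Slc2a4, −0.14 to 0.17 for Hk2, −0.024 to 0.11 for Gpi1, −0.14 to 0.048 for Pfkl, −0.066 to 0.019 for Pfkp, −0.034 to 0.11 for Pfkm, −0.013 to 0.32 for Pfkfb4, −0.055 to 0.041 for Aldoa and −0.46 to 0.29 for Aldoc, and from −0.051 to 0.048 for Tpi1, −0.047 to 0.11 for Pgk1, −0.46 to 1.03 for Pgam2, −0.089 to 0.020 for Pkm, −0.00018 to 0.070 for Ldha, −0.017 to 0.16 for Ldhb, −0.16 to 0.25 for Slc16a3, −0.070 to 0.16 for Bnip3 and −0.47 to 0.17 for Egln3. Differences in log2 isoform ratios ran from −0.17 to 1.17 for Pgam2/Pgam1, −0.21 to 0.19 for Slc2a4/Slc2a1, −0.060 to 0.25 for Hk2/Hk1, −0.088 to 0.089 for Ldhb/Ldha and −0.47 to 0.27 for Aldoc/Aldoa. Pgam2 also turned to 0.33 in limma-voom and 0.23 with the replicate block, and Tpi1 to 0.0064 with a mean count of at least 50. Apart from the libraries left out, the cause was not tested. The 95% intervals of the fold reach past 1.5-fold for Aldoc (0.404 to 2.09), Pgam2 (0.363 to 2.59) and Ankrd37 (0.917 to 2.56). Those of Slc2a4, Pfkfb3, Pfkfb4, Eno3, Vegfa, Adm and Egln3 reach past it as well. The part of depth in these intervals was not tested, and Car9 was too low to test.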
